A study of Macaca fascicularis with 11 samples.

Results

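In skeletal muscle of the Cynomolgus macaque, 411 CpG cytosines differed strongly between animals although the nearest cytosine listed on the same strand was nearly constant. These members were chosen by their own methylation ratios and by those of their neighbours. A member had a range over animals, the highest minus the lowest ratio, of 0.5 or more. Its nearest listed cytosine on the same chromosome and strand lay within 20 bp and had a range below 0.25. The choice was made on chromosomes 1 to 20 without chromosomes 10 and 11, which held 42613 of the 61399 cytosines of the table. Of these, 2606 (6.12%) had a range of 0.5 or more, and the members were 15.8% of this variable class and 0.964% of all cytosines on the 18 chromosomes. The other 2195 variable cytosines serve as the comparison below. Of these, 1017 had a neighbour with a range of 0.5 or more, 742 had a neighbour with a range from 0.25 to below 0.5, and 436 had no listed cytosine within 20 bp on their strand.

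The samples were quadriceps muscle biopsies from 11 adult male Cynomolgus macaques, which form 1 group with no treatment or contrast, and reduced representation bisulfite sequencing (RRBS) was made from their genomic DNA. RRBS cuts DNA at a short recognition site that holds a CpG and sequences the bisulfite converted fragments, so that it favours clusters of CpGs. The methylation ratio is the share of reads of a cytosine that kept the C, from 0 (unmethylated) to 1 (methylated), and the number of reads behind a ratio is unknown here beyond the stated minimum of 10. A biopsy holds several kinds of cells, and a different share of cell types cannot be told apart from a different methylation level within a cell type.

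In vertebrate genomes methylation is placed mainly on the C of a CpG, usually on both strands of the site, and CpGs a few bases apart tend to share their level. Bisulfite turns an unmethylated C into a base that is read as T. A C-to-T variant at the CpG is therefore read like an unmethylated cytosine. At a site that is otherwise fully methylated, an animal with no copy of the variant would read near 1, a heterozygote midway, and a homozygote near 0. A change of either base also removes the CpG from the opposite strand. No genotype or genome sequence of these animals was used, so the ratios below are described by how closely they lie to 0, 0.5 and 1, without a call of variants.

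The ratios of the members gathered near 1, with little more than an even spread near 0.5 and less than that near 0. Since the members were selected on these ratios, this is a description with no test. Of the ratios of an animal at the 411 members, 21.7% ± 1.66 (SD, n = 11 animals) lay within 0.1 of 1. Within 0.1 of 0.5 lay 22.9% ± 2.16 (SD, n = 11), and within 0.1 of 0 lay 7.45% ± 1.85 (SD, n = 11). Ratios spread evenly from 0 to 1 would put 10% near 1, 20% near 0.5, where the window has room on both sides, and 10% near 0. Together 52.0% ± 2.20 (SD, n = 11) of the ratios were within 0.1 of 0, 0.5 or 1. Over all 42613 cytosines of the 18 chromosomes the sum was higher, 73.0% ± 2.4 (SD, n = 11), with 50.4% near 0, 6.27% near 0.5 and 16.3% near 1. At the other variable cytosines the sum was 41.5% ± 5.16 (SD, n = 11). Near 1 they held 5.84% ± 0.988 (SD, n = 11) of their ratios, fewer than the members. Near 0.5 they held 26.7% ± 3.23 (SD, n = 11) and near 0 they held 9.04% ± 7.11 (SD, n = 11), more than the members. The order near 0 rested on 4 dense runs of variable cytosines. Outside these runs, a setting chosen after seeing the data, the other variable cytosines held 6.77% ± 2.67 (SD, n = 11) near 0, fewer than the members. Near 0.5 and 1 the order stayed, with 28.7% and 6.57%. Exact ratios of 1 made up 10.7% of the member values and 2.16% of those of the other variable cytosines, and exact ratios of 0 made up 3.27% and 2.07%.

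**Figure D1:**
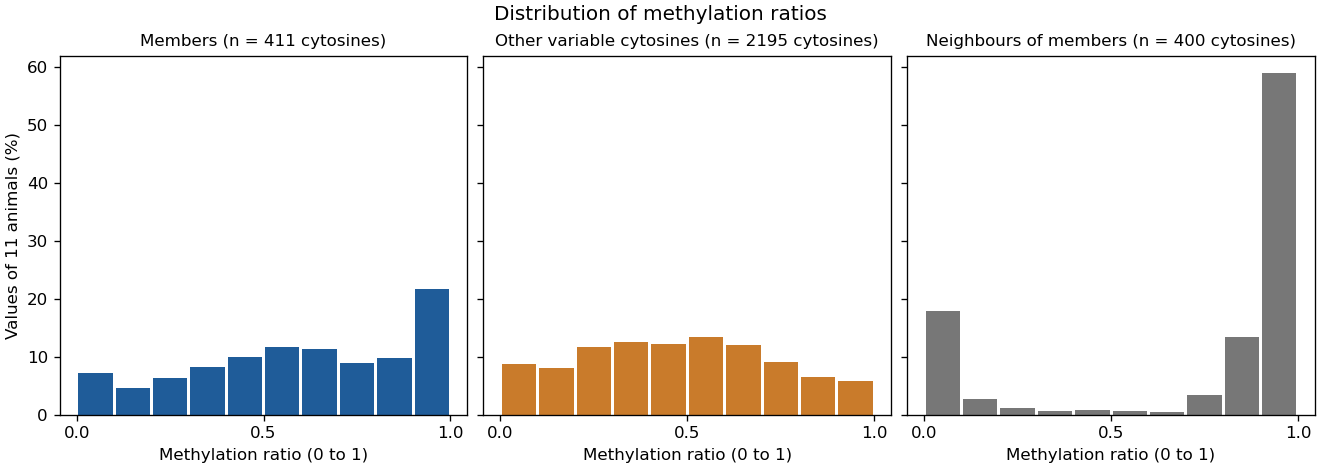
Ratios of the 11 animals in bins of 0.1 (horizontal axis, methylation ratio) as a percent of all values of the set (vertical axis), for the 411 members, the 2195 other variable cytosines and the 400 different cytosines that are neighbours of members. The members have their highest bar from 0.9 to 1 with 21.7% of values, a broad hump with 11.7% from 0.5 to 0.6, and their lowest bar from 0.1 to 0.2 with 4.69%.

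In bins of 0.1, the member values had a low point of 4.69% from 0.1 to 0.2, rose to 11.7% from 0.5 to 0.6, fell to 8.98% from 0.7 to 0.8 and were highest at 21.7% from 0.9 to 1. The middle of the scale was thus a broad hump and not a narrow peak at 0.5. The other variable cytosines had a broad hump, with 13.4% of values from 0.5 to 0.6, and no rise at the upper end, with 5.84% from 0.9 to 1. At the lower end they rose slightly, with 8.11% from 0.1 to 0.2 and 8.7% from 0 to 0.1. Gathering was closer at the members with the largest range. For the 31 members with a range of 0.9 or more, 69.5% ± 6.35 (SD, n = 11) of the ratios were within 0.1 of 0, 0.5 or 1, with 37.8% near 1, 15.5% near 0.5 and 16.1% near 0. The 61 other variable cytosines with such a range held 56.6% ± 6.97 (SD, n = 11) near these values. A range of 0.9 or more requires values near both ends, so part of this rise follows from the choice itself.

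Whole cytosines were then sorted by bands, with a ratio of 0.2 or lower called low, 0.35 to 0.65 called mid and 0.8 or higher called high. All 11 animals lay inside the bands at 70 members (17%), compared with 59 (2.69%) of the other variable cytosines. The sets were not matched for level. Within 0.1 of 1 lay 21.7% of the member values against 5.84%, which favours the high band at members. The contrast was not tested. Of the 70, 54 had mid and high animals alone, 6 had low and mid animals alone, 5 had low and high animals alone, and 5 filled all 3 bands. The mid and high pattern mostly rested on few mid animals. A single mid animal beside 10 high ones was seen at 24 of the 54, 2 mid animals at 9 and 3 mid animals at 9. The choice favours this pattern. A range of 0.5 or more requires a lowest ratio of 0.5 or below, so sites whose lowest animal stayed higher are no members. Beside animals near 1, a range just past the cut places the lowest animal in the mid band. Whether the mid band was filled more often than this cut alone would give was not tested. The full pattern with at least 2 animals in each band was met by 3 members. With animals between the bands allowed, all 3 bands were filled at 58 members (14.1%) and at 326 of the other variable cytosines (14.9%), so the members had no excess of this wider pattern. Most members were less tidy, since 341 had at least 1 animal between the bands, and on average 2.63 of the 11 animals lay there, compared with 3.46 at the other variable cytosines.

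**Figure D2:**
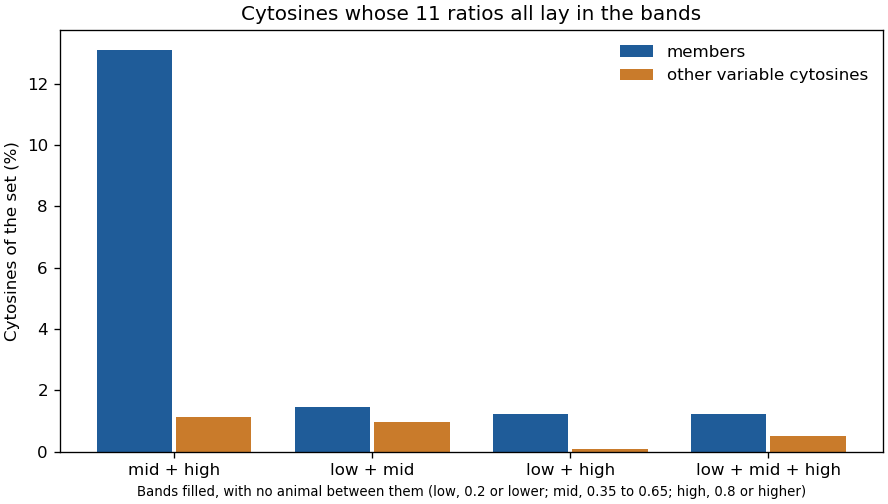
Percent of the 411 members and of the 2195 other variable cytosines (vertical axis) whose 11 ratios all lay in the low, mid and high bands, by the bands they filled (horizontal axis). Mid and high bands alone were filled by 13.1% of the members and 1.14% of the other variable cytosines, and all 3 bands by 1.22% and 0.501%. The sets were not matched for level.

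The 3 members with at least 2 animals in each band are given with the chromosome and position of the authors' genome of Yan et al., for which no gene annotation was used here. At the cytosine of chromosome 8, position 1579926 (minus strand), the ratios ran from 0.0370 to 1.00 with a median of 0.870. Animals 2634 and 2666 were low with 0.0370 and 0.0526, animals 5272, 5296 and 2654 were mid with 0.458, 0.471 and 0.625, and the other 6 were at 0.870 or higher. Its neighbour 2 bp away stayed between 0.913 and 1.00 in the same animals. At the cytosine of chromosome 17, position 6600174 (plus strand), the ratios ran from 0.00 to 1.00 with a median of 0.457. Here the mid band was the fullest, with 6 animals from 0.368 to 0.545, beside animals 2595 and 2646 at 0.00 and 0.0714 and 3 animals at 0.958 or higher. At the cytosine of chromosome 3, position 120543104 (minus strand), the ratios ran from 0.0976 to 1.00 with a median of 0.571. Animals 2595 and 5296 were low, 4 animals were mid and 5 were high, whereas the neighbour 6 bp away stayed at 0.927 or higher. The low animals differed between these 3 sites, animal 2595 being low at 2 of them.

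The members with the largest SD over animals included the one on chromosome 8 and 4 others. The largest SD, 0.427, was that of chromosome 20, position 2197202 (plus strand), with a median of 0.965. Animals 2673, 2595 and 5272 lay at 0.00, 0.0541 and 0.0952, animal 5295 lay at 0.581, and the other 7 lay at 0.9 or higher. At chromosome 16, position 58746032 (plus strand), the order was turned, with a median of 0.00 because 6 animals were listed at 0 and 2 animals at 0.8 and 1.00. Its neighbour 2 bp away lay between 0.8 and 1.00, so that a cytosine without methylation in most animals stood beside a methylated one. At chromosome 19, position 3630522 (minus strand, SD 0.383), and chromosome 3, position 44732910 (plus strand, SD 0.369), the ratios ran from 0.00 to 1.00 with medians of 0.929 and 0.667, and 1 animal of each lay between the bands.

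The opposite end was formed by members whose animals avoided 0, 0.5 and 1. The mean distance of the ratios to the nearest of these values was 0.105 over all members and 0.125 over the other variable cytosines. It was largest, 0.208, at chromosome 16, position 1322443 (minus strand), where the ratios had a lowest value of 0.25, a median of 0.733 and a highest of 0.788. A single animal, 5296, stood apart and made this a member, and the other 10 lay between 0.6 and 0.788. At chromosome 14, position 45067274 (plus strand, distance 0.192), 4 animals lay from 0.231 to 0.322 and 7 from 0.585 to 0.778, which is 2 clusters that lie mostly away from 0, 0.5 and 1. At chromosome 13, position 60496968 (minus strand, distance 0.187), animals 2606 and 2673 lay at 0.708 and 0.706 and the other 9 from 0.154 to 0.357.

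**Figure D3:**
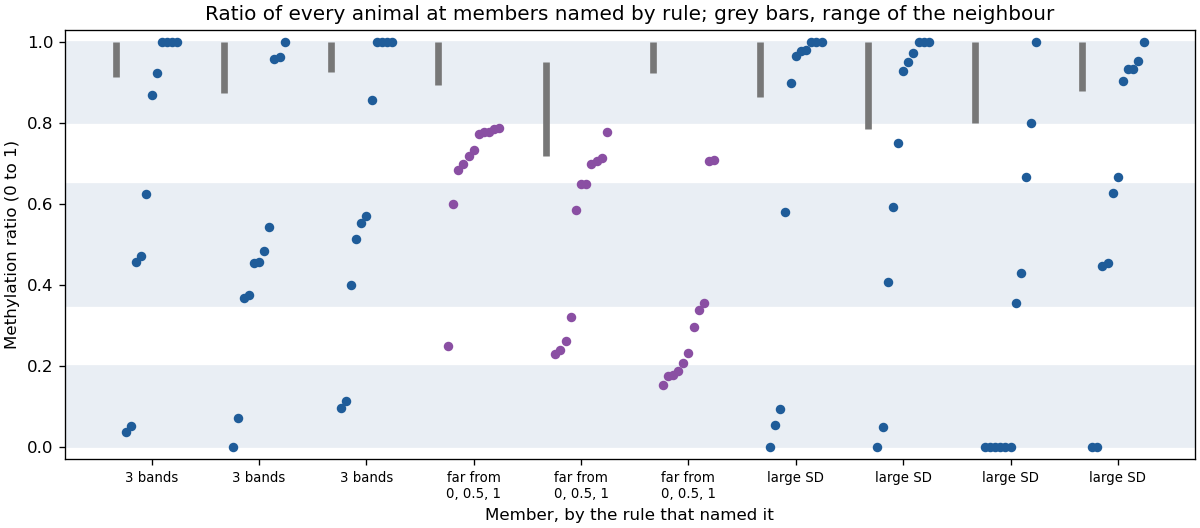
Methylation ratio of each of the 11 animals (points, sorted; vertical axis) at 10 members, with the low, mid and high bands shaded and the range of the neighbour as a grey bar. From the left, 3 members with all bands filled (chromosomes 8, 17 and 3), 3 far from 0, 0.5 and 1 (chromosomes 16, 14 and 13, purple) and 4 with a large SD (chromosomes 20, 19, 16 and 3). The neighbours all stay above 0.7 while the members reach from 0.00 to 1.00 at 5 of the 10 sites.

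At 5 members low and high animals occurred with none between, and they were looked at after their values were seen. At 4 of them a single animal was low beside 10 high ones, with a different animal each time. These were animal 2595 at chromosome 14, position 74559864 (0.0833), animal 2624 at chromosome 3, position 169856 (0.00), animal 2673 at chromosome 12, position 104079396 (0.00), and animal 2606 at chromosome 16, position 19152045 (0.0588). No animal lay near 0.5 at these sites. The fifth site had the reverse pattern, with animal 2666 at 0.916 and the other 10 at 0.2 or lower at chromosome 6, position 93916780.

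Most members stood beside methylated neighbours. The mean ratio of the neighbour was above 0.7 at 310 members (75.4%), below 0.3 at 93 (22.6%) and between these at 8 (1.95%). A stable neighbour within 20 bp was present for 27437 cytosines of the 18 chromosomes, and 1.5% of them were members. Of the 6278 beside a stable high neighbour 4.94% were members, and of the 20712 beside a stable low neighbour 0.449%. Beside a high neighbour the members were almost always the lower of the pair, with a lower mean at 308 of 310 and a lower ratio in every animal at 106. The median over these members was 0.333 for the lowest, 0.695 for the median and 1.00 for the highest animal, against 0.863, 0.957 and 1.00 for their neighbours. At least 1 animal reached 0.8 at 265 of the 310, and at least 1 animal was at 0.2 or lower at 96. The direction follows largely from the choice, since a range of 0.5 or more brings the lowest ratio to 0.5 or below while a stable high neighbour lies near the top of the scale. The lowest ratio lay more often near the middle of the scale than at its end, and the rule favours this too. Over all members the ranges thinned out above the cut, with 182 members at 0.6 or more and 93 at 0.7 or more. Where the highest animal is near 1.00, a range just above 0.5 leaves the lowest near the middle. Whether values stopped there more often than the cut alone would give was not tested.

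Beside a low neighbour the rule favours the reverse direction, because a member must reach 0.5 or more and such a neighbour lies near 0. All 93 members had a higher mean than the neighbour, and 39 had a higher ratio in every animal. The median over these members was 0.0417 for the lowest, 0.318 for the median and 0.698 for the highest animal, and the neighbours reached a median of 0.0952 in their highest animal. Near 0 lay 20.9% ± 7.35 (SD, n = 11) of their ratios, near 0.5 lay 22.8% ± 4.92 (SD, n = 11), and near 1 lay 3.03% ± 1.79 (SD, n = 11). The gathering near 1 thus belonged to the members with a high neighbour, 27.7% ± 1.88 (SD, n = 11). Variable cytosines with a high but unstable neighbour were closer to them in this respect, with 18.4% ± 2.74 (SD, n = 11) of values near 1.

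**Figure D4:**
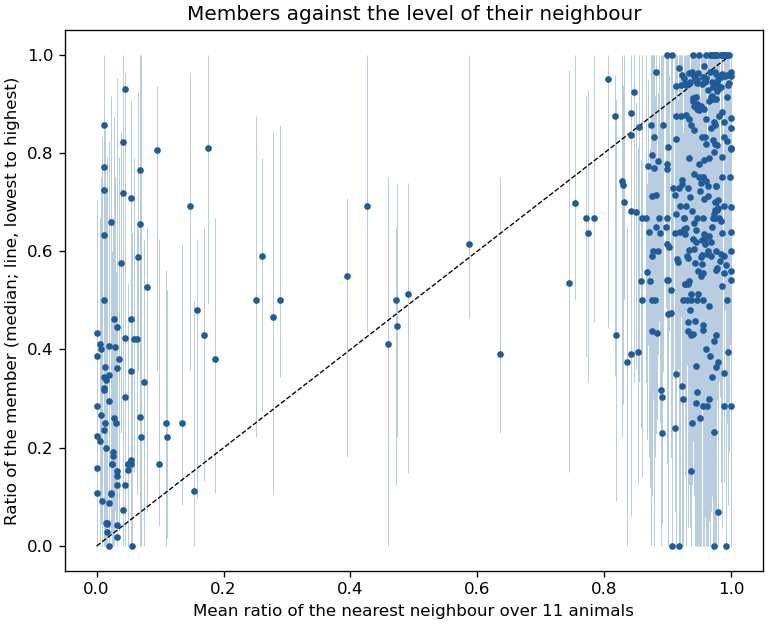
Ratio of each of the 411 members (points, median of 11 animals; lines, lowest to highest) against the mean ratio of its neighbour (horizontal axis). The dashed line marks equal values. At the right edge 308 of 310 members had a mean below that of the neighbour, and at the left edge all 93 had a mean above it.

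Of the 3 members with a low neighbour and the largest SD, 2 had animals in both the low and the high band. At chromosome 3, position 20622089 (minus strand), the ratios ran from 0.0645 to 0.958 with a median of 0.772. Animals 5295, 2673, 2666 and 2634 lay from 0.0645 to 0.188 and the other 7 from 0.729 to 0.958, while the neighbour 2 bp away did not exceed 0.05 in any animal. No animal was in the mid band there. At chromosome 3, position 59177605 (plus strand), the ratios ran from 0.0286 to 0.846 with a median of 0.365, and the neighbour 4 bp away reached 0.0377. The opposite strand of that CpG stayed at 0.0469 or lower in all animals. At chromosome 19, position 52861756 (plus strand), 6 animals lay at 0.0870 or lower and the other 5 from 0.231 to 0.762, beside a neighbour at 0.0769 or lower.

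The members did not rest on a few animals of the table, but many rested on a single animal each. Without its lowest or without its highest animal, 292 members (71.0%) would have a range below 0.5. This share was 77.6% at the other variable cytosines. For 126 members the lowest animal alone carried the range, for 75 the highest, and for 91 either. The remaining 119 members needed no single animal, and 54.0% ± 4.53 (SD, n = 11) of their ratios were within 0.1 of 0, 0.5 or 1, close to the 52.0% of all members. Each animal was needed by between 20 (animal 2634) and 48 (animal 2673) members, with a median of 34. The mean ratio at members was 0.595 ± 0.00985 (SD, n = 11 animals), and it ranged from 0.582 to 0.620. Animals 2606, 2646, 5296 and 5272 had higher ratios at cytosines that are low in the other animals, from 4.47% to 5.27% against 2.70% to 2.92% in the other 7. They also had fewer exact ratios of 0 over all cytosines of the 18 chromosomes, from 14.6% to 16.6% against 25.5% to 32.9%. The cause was not tested. These 4 animals were needed by 22, 31, 34 and 41 members. The bearing of this difference on the members was not tested beyond leaving these animals out.

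The opposite strand was not used to choose the members, and 70 of them were part of a CpG listed on both strands. At these 70 the opposite cytosine had a median range of 0.3. It had a range of 0.5 or more at 14 (20.0%), from 0.25 to below 0.5 at 30, and below 0.25 at 26. Over all 4892 cytosines of the 18 chromosomes listed on both strands, 9.71% had a range of 0.5 or more. At the other variable cytosines the opposite strand passed this range at 230 of 405 (56.8%), but 193 of the 405 lay in 4 dense runs without members, 185 of them close together on chromosome 20. Outside these runs, a setting chosen after seeing the data, it passed at 50 of 212 (23.6%), near the share of the members. At only 3 CpGs were both strands members. The animal farthest from the mean of the others was the same on both strands and deviated in the same direction at 6 of the 70 members (8.57%). This held at 222 of 405 (54.8%) of the other variable cytosines but at only 32 of 212 (15.1%) outside the runs, so most of the contrast came from the runs. In either direction, the same animal was farthest on both strands at 12 of the 70 members (17.1%). These shares were not computed over all cytosines listed on both strands. The strands also differed in level at many members. The means of the strands were more than 0.2 apart at 34 members (48.6%), the member being the lower at 19 and the higher at 15, compared with 21.5% of the other variable cytosines, 39.6% of those outside the runs, and 13.2% of all cytosines listed on both strands.

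The CpG whose opposite strand varied most had the same 3 lowest animals on both strands, not all of them in the low band. At chromosome 7, position 155045054 (plus strand), the ratios ran from 0.176 to 0.984 with a median of 0.877, and on the opposite strand from 0.154 to 0.982 with a median of 0.717. Animals 2624, 2595 and 2673 were these lowest ones, with 0.176, 0.216 and 0.455 against 0.429, 0.154 and 0.167 on the opposite strand. The next CpG went the other way. At chromosome 1, position 80146934 (plus strand), animal 2634 had the highest ratio, 0.846, against a median of 0.5, whereas on the opposite strand it had the lowest, 0.259, against a median of 0.909. At chromosome 6, position 93916768 (minus strand), animal 2666 stood at 0.953 above a median of 0.125, and its opposite strand was 0.455 with a median of 0.833. At chromosome 8, position 51437383 (minus strand), both strands ranged widely, from 0.333 to 1.00 and from 0.167 to 1.00. Animals 5272, 2624 and 2654 were at 1.00 on the member's strand and at 0.625, 0.652 and 0.312 on the other.

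The members with the most constant opposite strand varied on 1 strand alone. At chromosome 5, position 153933313 (minus strand), animal 2595 lay at 0.467 and the other 10 from 0.840 to 1.00, while the opposite strand stayed between 0.960 and 1.00. At chromosome 15, position 105853581 (plus strand), the ratios ran from 0.35 to 0.993 with a median of 0.562. Animals 2595 and 2666 were high with 0.993 and 0.983, and 7 animals were in the mid band. Animals 5295 and 2606 lay between the bands, at 0.3499 and 0.789. On the opposite strand every animal lay between 0.961 and 1.00, and the neighbour 2 bp away lay between 0.948 and 0.989. Apart from the 2 animals between the bands, a pattern of mid and high animals was thus present on a single strand of this CpG.

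To measure this over all members, the deviation of an animal was taken as its ratio minus the mean of the other animals. The value of an animal is the mean deviation at the other cytosine, signed by the direction of the deviation at the member, as a percent of the mean size of the deviation at the member. It is 100 where the other cytosine moves fully with the member and 0 where it does not follow. On the opposite strand the value was -0.462% ± 10.7 (SD, n = 11 animals), above 0 in 6 animals and below 0 in 5 (two-sided permutation test over 2048 sign changes, p = 0.881, adjusted p = 0.881 by Benjamini-Hochberg over 4 tests). The animals ranged from -18.2% to 14.6%, so a common following of the opposite strand was not detectable, and a small one in either direction is within this spread. For the 19 members that need no single animal the value was 0.296% ± 15.5 (SD, n = 11). An animal's ratio is also part of the mean behind every other animal's deviation, which ties the 11 values loosely together.

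At the other variable cytosines listed on both strands the opposite strand followed by 48.2% ± 17.4 (SD, n = 11), from 20.6% to 75.6%. This pooled value came mainly from the 279 with a neighbour range of 0.5 or more, at 59.7% ± 19.0 (SD, n = 11), and the 103 with a neighbour range from 0.25 to below 0.5 stood at 24.6% ± 11.0 (SD, n = 11). The 23 with no neighbour within 20 bp stood at 10.3% ± 25.7 (SD, n = 11), above 0 in 7 animals and below 0 in 4, so weak following was not particular to members. Against the pooled value, the members were lower in 11 of 11 animals, with a difference of -48.6 ± 19.9 percentage points (SD; two-sided permutation test, p = 0.000977, the smallest that 2048 sign changes can give, adjusted p = 0.00195). The direction was favoured by the choice, since the sets were split by the range of a nearby cytosine and cytosines close together tend to vary alike, so the p-value does not speak for a property of members beyond this. The size of the difference depended on the dense runs, 3 of which lay on chromosome 20 between positions 31039260 and 31047553. Without the 4 runs of 10 or more variable cytosines the other variable cytosines followed by 17.6% ± 6.62 (SD, n = 11), and the difference was -18.1 ± 8.69 (SD; permutation test, adjusted p = 0.00195), below 0 in 11 of 11 animals. With cytosines at gaps of at most 1000 bp weighted as 1, it was -12.6 ± 11.8 (SD, n = 11; permutation test, adjusted p = 0.0156). With each such group given by its first cytosine alone, it was -3.90 ± 11.0 (SD, n = 11; permutation test, adjusted p = 0.329) and no longer passed the threshold of 0.05. The size also depended on 1 animal. With the runs kept but without animal 2595, the difference of -48.6 became -21.2 ± 10.9 (SD, n = 10; permutation test, adjusted p = 0.00391). These settings with runs were chosen after seeing the data.

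The rule used the nearest neighbour but not the second nearest cytosine of the strand, which 336 members had within 50 bp. It had a range below 0.25 at 179 of them (53.3%) and of 0.5 or more at 57 (17%). Over all 42613 cytosines of the 18 chromosomes, 6.12% had a range of 0.5 or more. At the other variable cytosines the second nearest had a range of 0.5 or more at 781 of 1530 (51.0%). The second nearest cytosine followed the member by 13.2% ± 4.66 (SD, n = 11), above 0 in 11 of 11 animals (two-sided permutation test, p = 0.000977, adjusted p = 0.00195). The nearest neighbour, whose constancy the rule fixed, followed by 2.31% ± 1.64 (SD, n = 11). The opposite strand was below the second nearest cytosine in 10 of 11 animals, by -13.7 ± 11.3 percentage points (SD; two-sided permutation test, p = 0.00195, adjusted p = 0.0026), with 70 members behind the former value and 336 behind the latter. Leaving out any single animal gave -16.2 to -8.54, the latter without animal 2666. The deviations of members were therefore found, in small part, at the second nearest cytosine of the same strand. With the second highest minus the second lowest ratio as the range, which left 100 members, that value was 4.19% ± 4.41 (SD, n = 11; permutation test, adjusted p = 0.0234). The difference from the opposite strand was then -6.25 ± 11.1 (SD, n = 11; permutation test, adjusted p = 0.1), on 15 members listed on both strands.

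**Figure D5:**
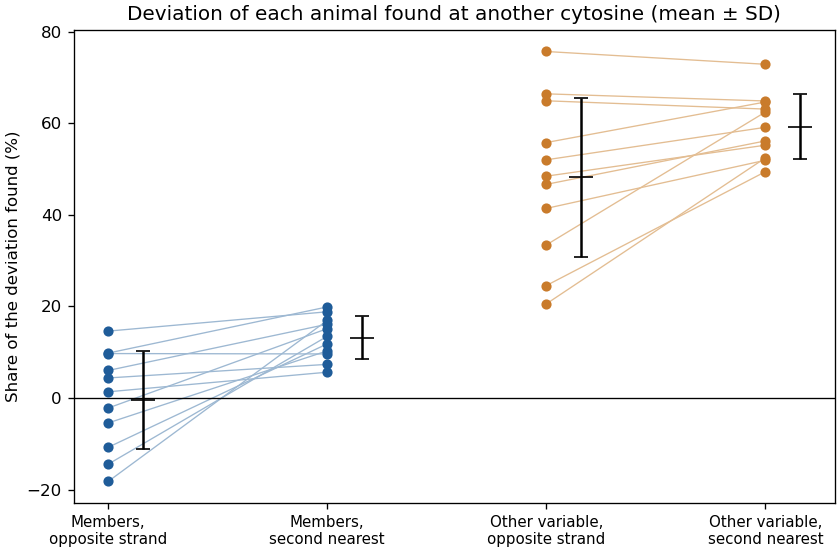
Share of the deviation of each animal (points, 11 animals; lines join an animal) that was found on the opposite strand and at the second nearest cytosine, in percent (vertical axis), for members and for other variable cytosines. Bars give mean ± SD. At members the opposite strand lies around 0 with a mean of -0.462% and the second nearest cytosine at 13.2%, and at other variable cytosines the means are 48.2% and 59.3%.

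Some members lay close to each other with a constant cytosine beside them. Of the 411, 72 had another member within 100 bp, which gave 44 pairs, 31 of them on the same strand. In 10 of the 31 pairs the same animal was farthest from the others at both cytosines and in the same direction, 8 of the 16 pairs within 20 bp and 2 of the 15 from 21 to 100 bp apart. In another pair, on chromosome 5, positions 183480342 and 183480365 (minus strand), animal 5296 was farthest at both but in opposite directions, with 0.238 and 0.857. The pair with the most similar ratios was on chromosome 7, positions 169482061 and 169482070 (minus strand), where the ratios of an animal differed by 0.0238 on average. Animal 2646 stood at 0.747 and 0.745 there, above medians of 0.0741 and 0.0476. On chromosome 6, positions 93916768 and 93916780 (minus strand), animal 2666 stood at 0.953 and 0.916 above medians of 0.125 and 0.109. The cytosine 2 bp from the former, which lies between both, did not exceed 0.111 in any animal. On chromosome 7, positions 135159218 and 135159231 (plus strand), animal 5272 was the low one, with 0.395 and 0.349 below medians of 0.958 and 0.914. The cytosine between these 2 stayed at 0.958 or higher. In the latter 2 pairs a nearly constant cytosine thus lay between members that deviated in the same animal. It did so too in pairs on chromosomes 3, 5, 8, 9, 12 and 13. These pairs were chosen after their values were seen.

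In position the members were spread over all 18 chromosomes, 201 from the plus strand and 210 from the minus strand. The share of cytosines with a stable neighbour that were members ran from 0.892% on chromosome 2 to 2.47% on chromosome 18. The densest stretch was on chromosome 3, with 9 members between positions 70496762 and 70512449. The median distance to the neighbour was 6 bp, compared with 5 bp for all cytosines with a stable neighbour, and a neighbour at 2 bp was found for 15.3% of members and 19.5% of those cytosines. Listed cytosines were fewer downstream of the members. The neighbour lay downstream, in the direction of the strand, at 170 members (41.4%) and upstream at 241, whereas it lay downstream at 50.6% of the cytosines with a stable neighbour. Within 50 bp, members had 1.86 listed cytosines upstream and 1.39 downstream on average, compared with 2.05 on each side for cytosines with a stable neighbour. The other variable cytosines differed in the same direction but less, with 1.53 upstream and 1.41 downstream, and 33.4% of them had none upstream and 39.0% none downstream. In the share with no listed cytosine within 50 bp, the imbalance was seen at members with a high neighbour. Of these, 29.0% had none downstream and 9.35% none upstream, against 22.4% and 22.2% of all cytosines beside a stable high neighbour. At members with a low neighbour the values were 31.2% and 32.3%. Their mean numbers, 1.81 upstream and 1.66 downstream, still differed, against 2.17 and 2.15 for all cytosines beside a stable low neighbour. At members with a high neighbour the means were 1.85 and 1.31. These shares are over cytosines, not animals, and were not tested.

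At the thresholds of the rule, the member just inside the range was at chromosome 1, position 12558751 (minus strand), with ratios from 0.00 to 0.5 and a median of 0.261. The cytosine just outside, at chromosome 19, position 17713314 (plus strand), had ratios from 0.424 to 0.923, a range of 0.499. The member with the least stable neighbour was at chromosome 12, position 14196381 (plus strand), with a neighbour range of 0.248, and the cytosine just outside, at chromosome 1, position 5630527 (plus strand), had a neighbour range of 0.25. At the distance of 20 bp stood the member at chromosome 5, position 183480342 (minus strand), with ratios from 0.238 to 0.8. At 21 bp stood the cytosine at chromosome 14, position 36514328 (minus strand), with ratios from 0.00 to 0.636.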

How the data were processed

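Quality trimming (quality and read length of at least 20), alignment with RRBSMAP to the macaque assembly of Yan et al. and a minimum of 10 reads per CpG are work of the authors, who deposited a methylation ratio for each cytosine and animal. The sample labels and the paper differ in the digestion enzymes, the DNA input and the conversion kit. Column headers give animal numbers, which no sample label repeats. The 11 columns were therefore treated as separate animals of a single group, without a match to individual labels. Read counts were not used here, and alternative coverage minimums, which need them, were not run.

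Ranges, bands, neighbours and deviations were computed with Python 3.11.15, numpy 2.4.6 and pandas 2.3.3, and figures were drawn with matplotlib 3.10.9. The calculations were tested on simulated data. Members, lists and tests were chosen with earlier results of these data known. Cytosines named by rule are the 5 members in 3 bands (at least 2 animals in each) closest to 0, 0.5 and 1, of which 3 existed, the 3 farthest from them, the 5 with the largest SD, the 4 and 2 whose opposite strand had the largest and smallest SD, the 3 of largest SD beside a low neighbour, and those at the thresholds. Members with low and high animals alone and pairs of nearby members were named after seeing the data. No chromosome sequence or gene annotation of the authors' genome was used. Alternatives varied the thresholds, the chromosomes, the animals, the centre of a deviation and the counting of nearby cytosines.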

Additional observations from a re-analysis of the deposited data

How the results depend on the processing

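The number of members moved with the rule, to 840 at a range of 0.4, 182 at a range of 0.6, and 100 when the second highest minus the second lowest ratio had to reach 0.5. Leaving out any single animal gave 377 to 403 members. The percent of member values within 0.1 of 0, 0.5 or 1, 52.0%, was 48.6% at a range of 0.4 and 55.6% with the second highest minus the second lowest ratio. It was 30.8% and 68.3% for a tolerance of 0.05 and 0.15, which narrows or widens the window itself, and 44.2% without exact ratios of 0 and 1. Leaving out any single animal gave 51.6% to 52.4%.

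The value on the opposite strand, -0.462%, stayed within the spread between animals and had no adjusted p below 0.221. Its sign turned at a range of 0.4 (1.52%), with a neighbour within 10 bp (1.97%), with the median as centre (1.08%), with both strands of a CpG counted once (0.0494%), and with nearby members given by their first cytosine (0.271%) or weighted as 1 (1.11%), settings chosen after seeing the data. Leaving out any single animal gave -3.85% to 4.47%. The second nearest cytosine kept its direction and passed the threshold in all 25 alternatives run, from 4.19% to 16.5%. Its difference from the opposite strand missed the threshold only with the second highest minus the second lowest ratio (-6.25, adjusted p = 0.1 in the permutation test). The difference between members and other variable cytosines on the opposite strand missed it only with nearby cytosines given by their first cytosine (-3.90, adjusted p = 0.329 in the permutation test). Without the 4 animals with the highest ratios at low cytosines, the test with 7 animals gave an adjusted p of 0.0208 for the second nearest cytosine, for its difference from the opposite strand, and for members against other variable cytosines, whose direction the choice of members favoured. The depth behind each ratio is unknown, and how far counting error adds to the ranges was not tested.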
